A study of Mus musculus with 6 samples.

Results

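Bone morphogenetic proteins (BMPs), their receptors, a secreted antagonist and the ID genes that BMP signals switch on were compared between stromal cells of muscle and of lymph node. The set holds 10 genes, taken by symbol from a count table of 52997 gene symbols: the ligands Bmp2, Bmp4, Bmp5 and Bmp6, the receptors Bmpr1a and Bmpr2, the antagonist Grem1 and the targets Id1, Id2 and Id3. Of these, 8 had enough counts to be tested and 2, Grem1 and Id1, did not. RNA was sequenced from mesenchymal stromal cells, which lay down the matrix of connective tissue and support neighbouring cells, of C57BL/6 mice aged 8 weeks. One group came from muscle of the hindlimb and the other from lymph nodes taken from inguinal, axillary, brachial and cervical sites together, with no treatment or mutation named for either. There were 3 libraries per tissue, each made from 1000 cells sorted in a double pass, by markers not given in the sources used here. According to the submitters the replicates are biological. A pair of muscle titles shares a number, however, and the table's muscle columns are numbered otherwise than the titles, so it is not known here whether every muscle library is a separate animal, and p-values measure only the spread between these libraries.

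BMPs are secreted growth factors of the TGF-beta superfamily. A BMP dimer joins type I receptors such as Bmpr1a with a type II receptor such as Bmpr2, which leads to phosphorylation of SMAD1, SMAD5 and SMAD9. These enter the nucleus with SMAD4 and switch on target genes, of which Id1, Id2 and Id3 are the classic examples. ID proteins lack a DNA-binding region and hold basic helix-loop-helix (bHLH) transcription factors away from DNA. Secreted antagonists such as gremlin, the product of Grem1, bind the ligands outside the cell. In connective tissue the pathway is known for its part in bone and cartilage formation and in fibroblast differentiation.

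Levels below are CPM, counts per 1000000 counts of the library after trimmed-mean (TMM) scaling of library sizes. Differences are log2 fold changes, muscle minus lymph node, with their standard error (SE), from edgeR's quasi-likelihood test over 10823 genes, and a gene was called at a Benjamini-Hochberg adjusted p under 0.05. Libraries are named by the numbers of their columns, 2, 3 and 4 for muscle and 1, 2 and 3 for lymph node, and values are given in that order. Muscle library 4 stood apart from the others. It held 415460 counts, against 1256276 to 2397134 in the remaining libraries, and its log2 CPM correlated at r = 0.656 to 0.705 with theirs, against 0.952 for muscle libraries 2 and 3 and 0.952 to 0.969 among lymph node libraries. All 12 stromal markers looked up were detected in each library. Their sum in muscle library 4, 75911 CPM, lay between those of muscle libraries 2 (88283) and 3 (69232). Pdgfra, Pdgfrb, Ly6a, Pdpn, Col1a2, Dcn, Cd34 and Dpt were lower in muscle library 4 than in muscle libraries 2 and 3. Pdgfra, for example, was at 651 CPM against 1193 and 1331 CPM. Lum was higher there, and Col1a1, Col3a1 and Thy1 lay between. The summed level of 8 T cell markers was 427 CPM in muscle library 4 and 2.28 to 10.9 CPM elsewhere, and that of 8 B cell markers was 2016 CPM against 17.7 to 261 CPM. The 261 CPM was lymph node library 3, with Ighm at 141 and Igkc at 100 CPM, and the remaining libraries reached at most 45.3 CPM. For 9 myeloid markers the sum was 177 CPM in muscle library 4 and 8.97 to 21.9 CPM in the others. In that library it was mostly Lyz2 (83.3 CPM), S100a9 (45.7) and Tyrobp (26.9), while Itgam, Csf1r and Cd68 were at 0. Elsewhere Cd68 was at 0.527 to 15.5 CPM and Csf1r at 0.455 to 8.57 CPM. The 12 endothelial markers other than Tek summed to 129 CPM in muscle library 4 against 17.1 to 26.1 CPM, with Cldn5 at 0 in all libraries. Pecam1 (59.1 CPM), Prox1 (29.6) and Lyve1 (24.2) made up most of the 129 CPM, while Cdh5, Tie1 and Esam were at 0 there. Tek went the other way, at 121 CPM there and 260 to 366 CPM elsewhere. With Tek, all 13 summed to 250 CPM there and 278 to 392 CPM in the others. The part of these cells in the results below was not tested, and the fold change of each tested member is given with and without this library. In sorted bulk samples, fewer cells that express a gene and less RNA per cell cannot be told apart.

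Bmp4 was higher in muscle stroma and Id3 was lower. These were the only calls among the 8 tested members with all 6 libraries. Of all tested genes 4.32% were called, 1.46% higher and 2.86% lower in muscle, and the members' calls, 1 of 8 in each direction, rest on single genes. Without muscle library 4, Bmp5 was also called higher and Id2 lower, which makes 4 of 8 called, with 12.4% of all tested genes called in that comparison. It is not known whether muscle libraries 2 and 3 are the titles that share a number. If they are, the muscle side of that fit may be 1 animal. Its p-values would then not measure the spread between muscle animals. The tissues did not overlap for 2 of the 8 members, Bmp4 and Id3, and for 23.6% of all tested genes. The median log2 fold change of the 8 was -0.10, beside 0.02 over all tested genes. Without muscle library 4 these medians were 0.14 and 0.01. The plot of levels by library shows all 10 genes.

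**Figure D1:**
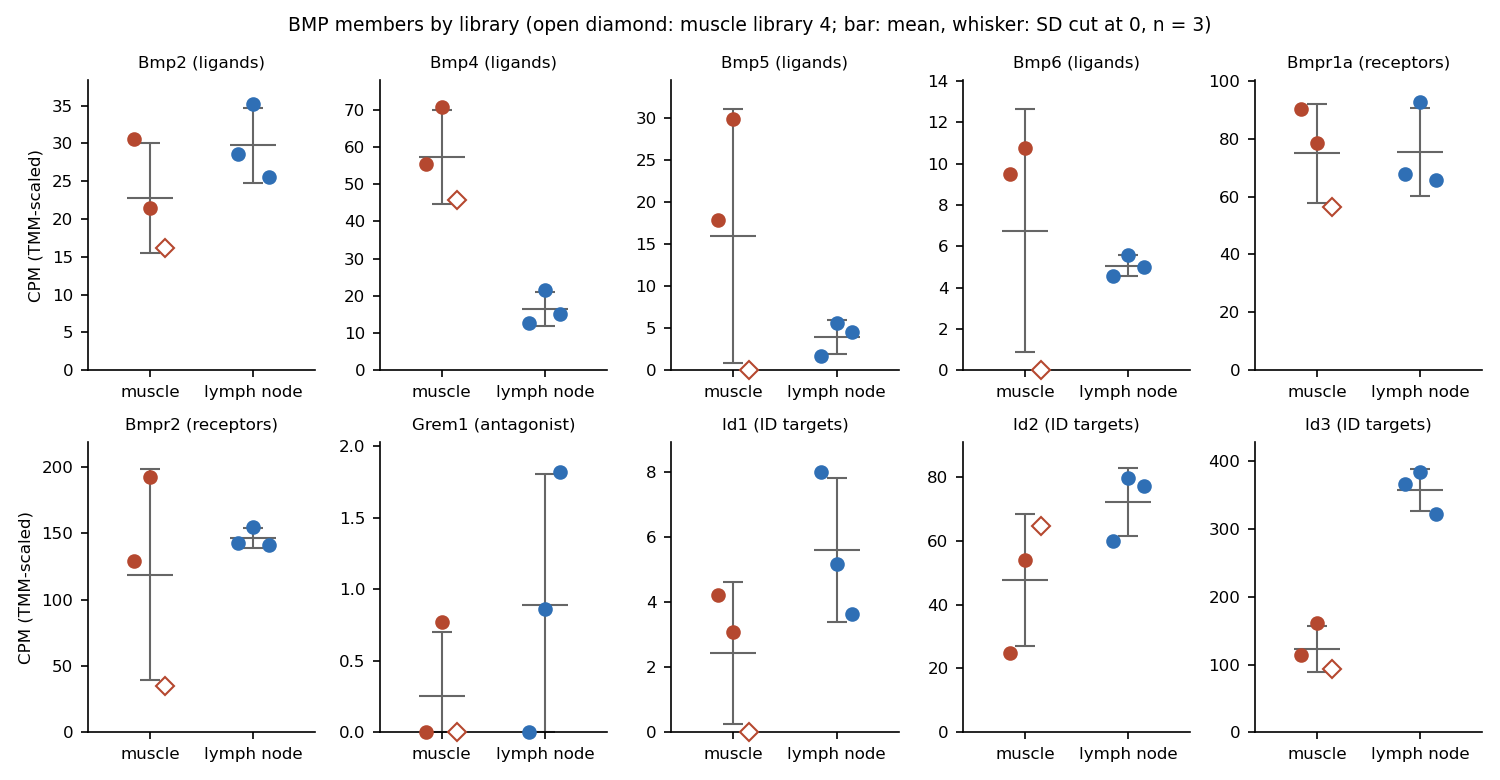
Level of each of the 10 genes in CPM (vertical axes, each from 0) in the 3 muscle and 3 lymph node libraries; points are libraries, the open diamond is muscle library 4, the bar is the mean and the whisker the SD. Bmp4 lies between 45.7 and 70.7 CPM in muscle and between 12.6 and 21.5 CPM in lymph node, Id3 lies between 94.1 and 161 against 322 and 383 CPM, and the levels of the other genes overlap between tissues.

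Among the ligands, Bmp4, which acts in limb, tooth and vessel development and is widely made by mesenchyme, was the member that rose in muscle. Its level was 55.4, 70.7 and 45.7 CPM in muscle and 12.6, 21.5 and 15.0 CPM in lymph node. All 3 muscle libraries, library 4 included, lay above all 3 lymph node libraries, with means of 57.3 ± 12.6 and 16.4 ± 4.61 CPM (SD, n = 3 each). The log2 fold change was 1.82 ± 0.30 (SE), or 3.54-fold, with an adjusted p of 0.00856. Leaving out muscle library 4 gave 1.91 ± 0.25, or 3.75-fold, with an adjusted p of 1.14e-04. The call was not kept in every fit. The adjusted p was 0.061 without muscle library 3, 0.0655 without lymph node library 1 and 0.0842 without lymph node library 3. It was 0.056 with muscle libraries 2 and 3 summed as 1. The call was kept without muscle library 2 (adjusted p = 0.0454) and without lymph node library 2 (0.0398). Leaving out any library but muscle library 4 also lowered the calls over all genes, from 468 to between 142 and 248. Over 15 alternatives the fold change stayed between 1.63 and 2.05 on the log2 scale, and 11 of them called the gene. The counts behind these levels were 105, 92 and 17 in muscle and 22, 50 and 33 in lymph node. Markers of mural cells, the contractile cells around vessels, also summed higher in muscle, to 140, 152 and 145 CPM for 8 genes against 77.1, 55.8 and 47.3 CPM. Most of that sum was Cspg4 (69.9 to 81.5 CPM in muscle, 6.85 to 11.4 in lymph node) and Des. The mural genes Rgs5, Acta2 and Myh11 were at 0 to 16.1 CPM in every library, with Acta2 at 0 in muscle library 4. Not all of the list followed its sum: Notch3 was at 8.97, 12.3 and 5.38 CPM in muscle and 14.8, 13.3 and 10.02 CPM in lymph node, and Kcnj8 at 2.11, 4.61 and 0 against 20.6, 9.88 and 2.28 CPM. For 9 genes of muscle fibres and satellite cells the sum was 58.5, 73.8 and 10.8 CPM in muscle and 8.57 to 12.7 CPM in lymph node, with Myf5 at 0 throughout. The part of either list in the Bmp4 difference was not tested.

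Bmp4 lies at chr14:46383520-46390669 on the minus strand (GRCm38, GENCODE M21). The 250 bases ahead of its RefSeq start site (GRCm38.p6, chr14:46390670-46390919, minus strand, outside annotated exons) are shown because Bmp4 was the ligand that differed, with E-boxes in capitals. An E-box, CANNTG, is the element that bHLH factors bind, the proteins that ID proteins hold back.
Bmp4 promoter: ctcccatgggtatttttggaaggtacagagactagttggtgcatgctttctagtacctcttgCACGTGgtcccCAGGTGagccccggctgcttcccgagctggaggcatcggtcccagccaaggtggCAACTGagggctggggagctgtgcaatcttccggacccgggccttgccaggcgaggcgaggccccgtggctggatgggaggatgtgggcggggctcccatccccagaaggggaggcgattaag
The 3 E-boxes begin at 188, 177 and 123 bases upstream of the start. The stretch has no match on either strand to GGCGCC, an element that SMAD1 and SMAD5 bind, or to CAGAC, the SMAD box. Over the 250 bases ahead of the start in 32841 mouse promoters of the same table, 66.2% held an E-box, 42.2% CAGAC and 9.59% GGCGCC, all counted on both strands. E-boxes are thus common in such windows, and these matches describe letters, not binding.

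Bmp2, a close relative of Bmp4 known for driving bone formation, did not differ beyond the spread. It was measured at 30.6, 21.5 and 16.1 CPM in muscle and 28.6, 35.2 and 25.5 CPM in lymph node. Muscle library 2 lay within the lymph node range and the other muscle libraries below it, and the means were 22.7 ± 7.31 and 29.8 ± 4.98 CPM (SD, n = 3 each). The log2 fold change of Bmp2 was -0.30 ± 0.31, with an adjusted p of 0.737, and it was -0.18 without muscle library 4, with an adjusted p of 0.757. The gene lies at chr2:133552159-133562885 on the plus strand.

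Bmp5, a ligand of the BMP5, BMP6 and BMP7 branch that takes part in skeletal patterning, depended on muscle library 4. Its counts were 34, 39 and 0 in muscle and 3, 13 and 10 in lymph node, or 17.9, 30.0 and 0 CPM against 1.71, 5.58 and 4.55 CPM. Muscle libraries 2 and 3 stood above every lymph node library, and muscle library 4 had no count. A count of 0 in that shallow library allows up to 8.06 CPM (3 counts, counting error only), which is above all the lymph node levels and below the other muscle levels. With all libraries the log2 fold change of Bmp5 was 2.16 ± 0.76 and was not called (adjusted p = 0.196). With muscle library 4 left out it was 2.50 ± 0.44, or 5.65-fold, with an adjusted p of 0.00133. It was also called with no filter on low counts (adjusted p = 0.0275) and by limma-voom with library weights (adjusted p = 0.00799). Bmp5 lies at chr9:75775364-75900310 on the plus strand, and 46.1% of its 25-base words also occur in transcripts of other genes. The largest share of these belongs to Gm26903, an antisense gene that covers 1878 of its 4025 exonic bases and had 9 counts in all libraries together. No source used here states whether the counting used strand, so reads of this pair cannot be told apart.

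Bmp6, of the same branch and known as a signal in iron balance, was low in both tissues. It had 18, 14 and 0 counts in muscle and 8, 13 and 11 in lymph node, or 9.49, 10.8 and 0 CPM against 4.57, 5.58 and 5.01 CPM. Muscle libraries 2 and 3 were higher than the lymph node libraries, while the 0 in muscle library 4 again allows up to 8.06 CPM. Bmp6 had a log2 fold change of 0.68 ± 0.62 (adjusted p = 0.698). Omitting muscle library 4 left it at 0.97 ± 0.44, which was not called (adjusted p = 0.202). The gene lies at chr13:38345107-38500302 on the plus strand and overlaps Txndc5, a gene on the opposite strand, over 224 exonic bases. Txndc5 had 2292 counts in all libraries together, far more than Bmp6. With the strand setting not given, reads of the overlap cannot be told apart.

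The mix of ligands was compared within each library from levels per kilobase of exon, which do not depend on library size. Bmp4 made up 61.4%, 65.9% and 81.8% of the summed level of the 4 ligands in muscle and 36.7%, 42.9% and 41.1% in lymph node. Bmp2 made up 21.4%, 12.7% and 18.2% in muscle and 52.8%, 44.5% and 44.1% in lymph node. Bmp4 was thus the most abundant of the 4 transcripts in every muscle library, and Bmp2 in every lymph node library, by a small margin in lymph node libraries 2 and 3. The shares do not overlap between tissues for either gene. With 3 libraries against 3, an exact permutation test (two-sided) cannot give a p below 0.10, so none was applied. Bmp5 took 11.1% and 15.6% in muscle libraries 2 and 3 and 2.80% to 6.95% in lymph node. Bmp6 took 6.07% and 5.78% in those muscle libraries and 6.43% to 7.89% in lymph node. Both are at 0 in muscle library 4, so the shares of Bmp4 and Bmp2 there are taken over that pair alone. All shares assume reads over the whole exon length of each gene, which for Bmp5 includes the 1878 bases covered by Gm26903.

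**Figure D2:**
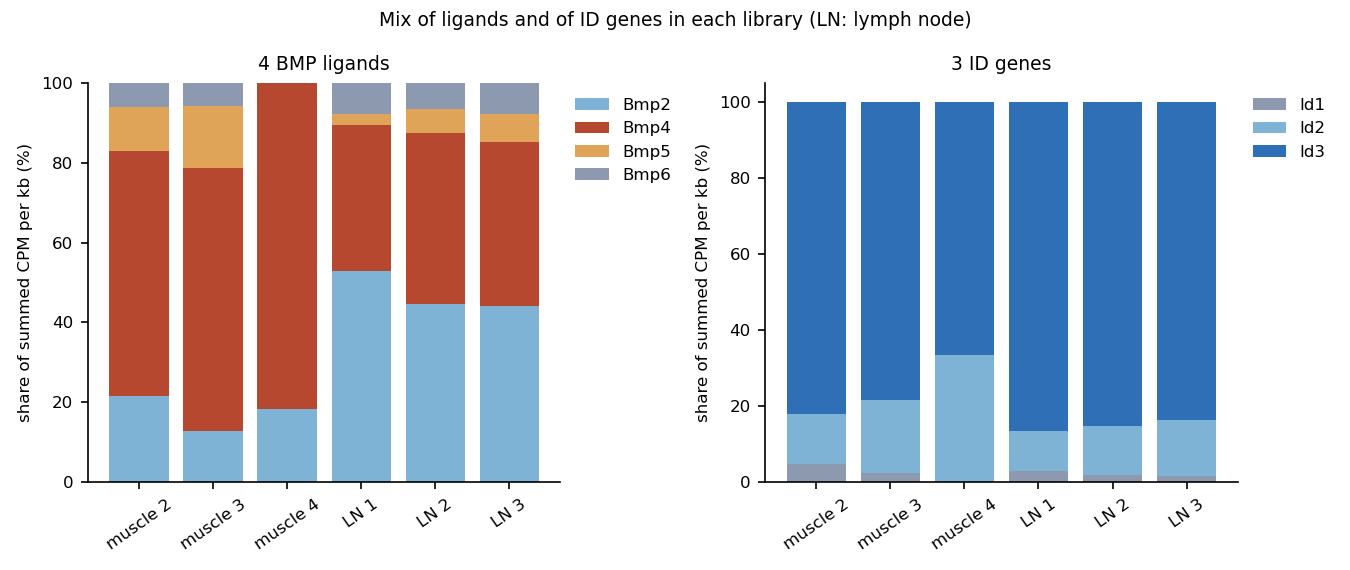
Share of the summed level per kilobase of exon (vertical axis, percent) taken by each of 4 BMP ligands (left) and 3 ID genes (right) in each library (horizontal axis). Bmp4 takes 61.4% to 81.8% in muscle and 36.7% to 42.9% in lymph node, and Id3 takes 66.5% to 82.2% in muscle and 83.8% to 86.7% in lymph node.

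Neither receptor differed beyond the spread. Bmpr1a, a type I receptor with a kinase domain that binds BMP2 and BMP4, was measured at 90.2, 78.4 and 56.4 CPM in muscle and 68.0, 92.8 and 65.6 CPM in lymph node. The ranges lay over each other, and the means were 75.0 ± 17.1 and 75.4 ± 15.1 CPM (SD, n = 3 each). The log2 fold change of Bmpr1a was 0.03 ± 0.24, with an adjusted p of 0.979, and it was 0.15 without muscle library 4. Over the alternatives it ran from -0.14 to 0.18, and 9 of 15 kept its sign. Bmpr1a lies at chr14:34410734-34503341 on the minus strand.

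Bmpr2, the type II receptor that activates type I receptors and is mutated in inherited pulmonary arterial hypertension, reached 129, 192 and 34.9 CPM in muscle and 143, 155 and 141 CPM in lymph node. The lymph node libraries were close together, muscle library 3 was the highest of all and muscle library 4 the lowest. The means were 119 ± 79.1 and 146 ± 7.54 CPM (SD, n = 3 each). The log2 fold change of Bmpr2 was -0.23 ± 0.42 (adjusted p = 0.870) and 0.12 ± 0.17 without muscle library 4 (adjusted p = 0.757), so its sign depended on that library. Bmpr2 lies at chr1:59763400-59879014 on the plus strand.

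Grem1, whose product gremlin blocks BMP2 and BMP4 and marks some stromal subsets of the gut and of lymph nodes, was barely detected. Its counts were 0, 1 and 0 in muscle and 0, 2 and 4 in lymph node. No library had more than 4 counts, and 1 lymph node library had none. Pooled over libraries, the level was 0.280 CPM in muscle (95% interval 0.00709 to 1.56) and 0.956 CPM in lymph node (0.351 to 2.08), by exact Poisson intervals that cover counting error only. The ratio of lymph node to muscle was 3.41, with an exact interval of 0.414 to 157, so a difference was not detectable at this depth. Grem1 lies at chr2:113746164-113758646 on the minus strand.

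All 3 ID genes of the set had lower mean levels in muscle, and Id3 was the one called with all 6 libraries. Id3, first of the 10 genes per kilobase of exon in both tissues, fell in muscle. It was measured at 114, 161 and 94.1 CPM in muscle and 366, 383 and 322 CPM in lymph node. Every muscle library lay below every lymph node library, at means of 123 ± 34.1 and 357 ± 31.4 CPM (SD, n = 3 each). The log2 fold change of Id3 was -1.51 ± 0.22, a level 2.86-fold higher in lymph node, with an adjusted p of 0.00549. The value without muscle library 4 was -1.39 ± 0.17, with an adjusted p of 6.14e-05. Of 15 alternatives 14 called it, with fold changes from -1.77 to -1.39 on the log2 scale, and the exception was the fit without lymph node library 2 (adjusted p = 0.0577). DESeq2 gave an adjusted p of 7.80e-07 and limma-voom 0.00109.

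Id2, which also acts in innate lymphoid cells and natural killer cells, was measured at 24.8, 53.8 and 64.5 CPM in muscle and 60.0, 79.5 and 76.9 CPM in lymph node. Muscle library 4 lay inside the lymph node range and the other muscle libraries below it. The means of Id2 were 47.7 ± 20.6 and 72.1 ± 10.6 CPM (SD, n = 3 each), and its log2 fold change of -0.69 ± 0.34 was not called (adjusted p = 0.385). Once muscle library 4 was left out, the fold change was -0.94 ± 0.27, 1.91-fold lower in muscle, with an adjusted p of 0.0329. limma-voom with library weights called it as well (adjusted p = 0.00870). T cell and B cell markers are high in muscle library 4, the muscle library with the highest Id2 level, and their part in that level was not tested.

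Id1, often used as a readout of BMP signalling in endothelial cells, was near the limit of detection. It had 8, 4 and 0 counts in muscle and 14, 12 and 8 in lymph node, or 4.22, 3.07 and 0 CPM against 7.99, 5.16 and 3.64 CPM. The tissues overlap, since muscle library 2 exceeds lymph node library 3. Over pooled counts Id1 was 1.61 times as high in lymph node as in muscle, with an exact interval of 0.814 to 3.42 that includes no difference. Id1 lies at chr2:152736251-152737410 on the plus strand.

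Within the ID genes of the set the mix was alike in order. Id4, also an ID gene, is not a member and was left out of these shares. Per kilobase of exon, Id3 made up 82.2%, 78.4% and 66.5% of their summed level in muscle and 86.7%, 85.2% and 83.8% in lymph node. Id2 made up 13.1%, 19.3% and 33.5% in muscle and 10.4%, 13.0% and 14.7% in lymph node. Id3 was first and Id2 second in every library. The Id3 share was lower in each muscle library than in any lymph node library, while the Id2 shares overlap.

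Beside the lower Id3 level, a list of 28 immediate early and stress genes was summed, which includes the heat shock genes Hspa1a and Hspa1b. Immediate early genes respond to stress and growth signals within minutes. The sum was 3900, 4650 and 3828 CPM in muscle and 26805, 24647 and 26442 CPM in lymph node. Of 27 tested, 21 were called lower and 0 higher in muscle by edgeR, beside 2.86% and 1.46% of all tested genes. An unadjusted p under 0.05 was reached by 24. Without muscle library 4, 23 were called lower, beside 12.4% of all tested genes called in either direction. Whether the Id3 difference moves with this signal within a tissue was not tested.

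The stretches of RefSeq promoter that hold a match are shown for Id2 and Id3, the ID genes that were called in at least 1 of the fits described above, with E-boxes, GGCGCC and the SMAD box in capitals. On the opposite strand the SMAD box reads GTCTG. Id2 lies at chr12:25093799-25097140 on the minus strand and the stretch is chr12:25096254-25096342, between exons of the annotation. Id3 lies at chr4:136143497-136145755 on the plus strand and the stretches are chr4:136143643-136143672 and chr4:136143742-136143771, both within an exon of the GENCODE annotation.
Id2 promoter: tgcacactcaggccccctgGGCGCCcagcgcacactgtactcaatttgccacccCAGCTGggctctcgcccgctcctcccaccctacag
Id3 promoter, distal: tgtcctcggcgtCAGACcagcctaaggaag
Id3 promoter, proximal: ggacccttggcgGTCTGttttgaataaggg
In Id2, GGCGCC begins 231 and an E-box, CAGCTG, 196 bases upstream of the start. In Id3, CAGAC begins 167 and GTCTG 68 bases upstream. Set against all promoters, GGCGCC is the rarer element (9.59%) and CAGAC is common (42.2%). Neither element was particular to the ID genes among the members. GGCGCC also occurred in the windows of Bmpr1a, Bmpr2 and Grem1, and CAGAC, on either strand, in those of Bmp5, Bmp6 and Grem1. Of the 10 genes 8 were in the promoter table, with Id1 and Bmp2 the others. None of these 8 windows had a match to TGANTCA, the AP-1 site, TGACGTCA, the cAMP response element, GCGGGGGCG, an EGR site, TATAAA or the CArG box, elements held by 6.75%, 1.55%, 2.57%, 12.4% and 1.47% of all promoters.

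Compared per kilobase of exon, Id3 led in both tissues, at 68.7 in muscle and 199 CPM per kilobase in lymph node. In muscle it was followed by Bmp4 (25.5), Id2 (19.6), Bmpr1a (11.8), Bmpr2 (6.60), Bmp2 (6.40), Bmp5 (3.97), Id1 (2.10), Bmp6 (1.73) and Grem1 (0.0618). Only Id3 and Bmp4 were neighbours in that order whose ranges over the 3 libraries did not overlap. In lymph node the order after Id3 was Id2 (29.6), Bmpr1a (11.9), Bmp2 (8.37), Bmpr2 (8.12), Bmp4 (7.28), Id1 (4.83), Bmp6 (1.30), Bmp5 (0.981) and Grem1 (0.215). There the ranges of Id3 and Id2, Id2 and Bmpr1a, Bmpr1a and Bmp2, and Id1 and Bmp6 did not overlap, and those of the other neighbours did. Bmp4 thus stood in the second place in muscle and behind both receptors and Bmp2 in lymph node. The muscle order was the same without muscle library 4. These orders assume that reads are spread over the whole exon length of each gene.

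**Figure D3:**
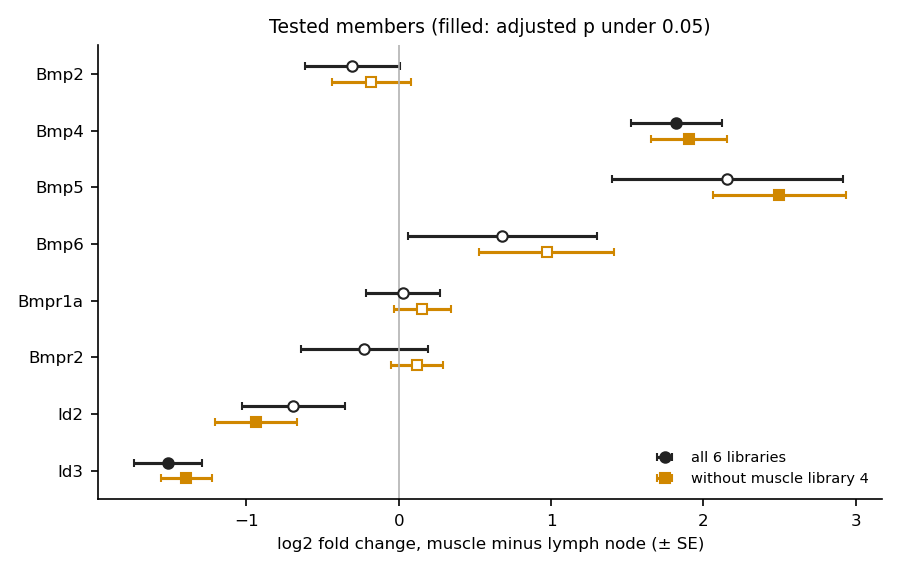
Log2 fold change, muscle minus lymph node (horizontal axis, with SE), of the 8 tested members (vertical axis) with all 6 libraries (black circles) and without muscle library 4 (orange squares); filled symbols have an adjusted p under 0.05. Bmp4 (1.82 and 1.91) and Id3 (-1.51 and -1.39) are filled in both fits, and Bmp5 and Id2 only without muscle library 4.

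The genes whose levels ran most like a called member across the 6 libraries were found by Pearson r of log2 CPM among 6878 genes with at least 20 mean CPM. For Bmp4 these were Cd151, a tetraspanin (r = 0.991), Trim16 (0.985) and Gna11, a G protein alpha subunit (0.984). For Id3 they were Enpep, an aminopeptidase that cleaves angiotensin (0.996), Il1r1, the interleukin-1 receptor (0.994), and Cxxc1 (0.993). With 6 points in 2 groups such values mainly track the tissue difference: 38 genes reached 0.95 for Bmp4 and 145 for Id3. Without muscle library 4 the r of these 6 genes ran from 0.983 to 0.998.

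Of 67 other BMP pathway genes listed, 35 could be tested, and 3 were higher and 1 lower in muscle, beside 1.46% and 2.86% of all tested genes. The median log2 fold change of the 35 was -0.06, and 16 of them did not overlap between tissues, beside the 23.6% of all tested genes given above. Among 10 tested extracellular modulators, 1 rose and 1 fell. Kcp, a secreted protein of the chordin type that enhances BMP signals, was measured at 138, 105 and 96.8 CPM in muscle and 16.0, 21.9 and 36.9 CPM in lymph node. All muscle libraries were above all lymph node libraries, and the log2 fold change of Kcp was 2.19 ± 0.32 (adjusted p = 0.00506). That call was lost without lymph node library 2 alone (adjusted p = 0.062). Chrdl1, a secreted BMP4 antagonist, went the other way, at 55.4, 54.6 and 132 CPM in muscle and 388, 204 and 285 CPM in lymph node. The highest muscle value, in library 4, was below the lowest lymph node value, and the log2 fold change of Chrdl1 was -1.96 ± 0.38 (adjusted p = 0.0183). Of its 15 alternatives 6 lost the call, with adjusted p from 0.0533 without lymph node library 2 to 0.103 without lymph node library 1. Those without muscle library 2 or 3 or lymph node library 3, and the summed pair, lay between. Twsg1, which binds BMPs and chordin, had 244, 287 and 156 against 406, 374 and 381 CPM (log2 fold change -0.74 ± 0.23, adjusted p = 0.130). Bmp1, a protease that cleaves chordin and is not a BMP ligand, was measured at 680, 564 and 435 against 574, 573 and 605 CPM (-0.05 ± 0.20, adjusted p = 0.945).

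Among 7 tested other receptors and co-receptors, Rgma alone was called. Rgma, a membrane-anchored BMP co-receptor of the repulsive guidance family, was measured at 71.7, 46.1 and 37.6 CPM in muscle and 16.6, 12.0 and 15.9 CPM in lymph node. The tissues did not overlap, and its log2 fold change was 1.86 ± 0.31 (adjusted p = 0.0102). The call was lost in 5 alternatives: muscle libraries 2 and 3 summed (adjusted p = 0.0504), and the fits without muscle library 2 (0.0747) or lymph node library 1 (0.0648), 2 (0.105) or 3 (0.0819). The type II receptor Acvr2a had 134, 151 and 96.8 CPM in muscle and 156, 160 and 150 CPM in lymph node (adjusted p = 0.626). The co-receptor Eng, or endoglin, had 195, 190 and 315 CPM against 179, 192 and 213 CPM (adjusted p = 0.719), highest in muscle library 4.

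Other ligands, SMADs with ubiquitin ligases, and other targets gave no call by edgeR among 4, 7 and 3 tested genes, with 0, 1 and 1 at an unadjusted p under 0.05. Gdf10, a ligand also called BMP3B, was measured at 247, 255 and 828 CPM in muscle and 812, 647 and 602 CPM in lymph node. Muscle library 4 lay above all lymph node libraries and the others far below them. Its log2 fold change was -0.66 ± 0.43 (adjusted p = 0.550) with all libraries and -1.46 ± 0.16 (adjusted p = 2.08e-05) without muscle library 4. Bmp3, related to Gdf10, had 41.7, 63.0 and 2.69 CPM against 35.4, 31.8 and 39.2 CPM (adjusted p = 0.919). Smad5, one of the SMADs that BMP receptors phosphorylate, had 81.2, 63.0 and 53.8 CPM against 40.5, 57.1 and 41.4 CPM (0.54 ± 0.25, adjusted p = 0.347). Smurf2, a ubiquitin ligase that targets SMADs and receptors, had 72.3, 63.0 and 51.1 against 62.2, 48.5 and 52.8 CPM (adjusted p = 0.724). Of the targets, the homeobox gene Msx1 had 65.4, 81.5 and 26.9 CPM in muscle and 90.8, 121 and 98.3 CPM in lymph node (adjusted p = 0.306). Zeb2, a repressor that binds SMADs, had 271, 247 and 349 against 387, 365 and 378 CPM (adjusted p = 0.370).

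Of 4 tested bHLH genes, whose proteins pair with ID proteins or with one another, Tcf4 was called. It reached 364, 480 and 323 CPM in muscle and 193, 230 and 205 CPM in lymph node, with no overlap. Tcf4 had a log2 fold change of 0.90 ± 0.20 (adjusted p = 0.0379), opposite in sign to Id3. Of 15 alternatives 8 lost this call, at adjusted p from 0.0526 with upper-quartile scaling to 0.313 with no filter, and these include each fit that left out 1 library other than muscle library 4. Tcf12, a second E protein, had 81.2, 110 and 83.3 CPM against 77.1, 56.3 and 63.7 CPM (0.49 ± 0.22, adjusted p = 0.355).

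**Figure D4:**
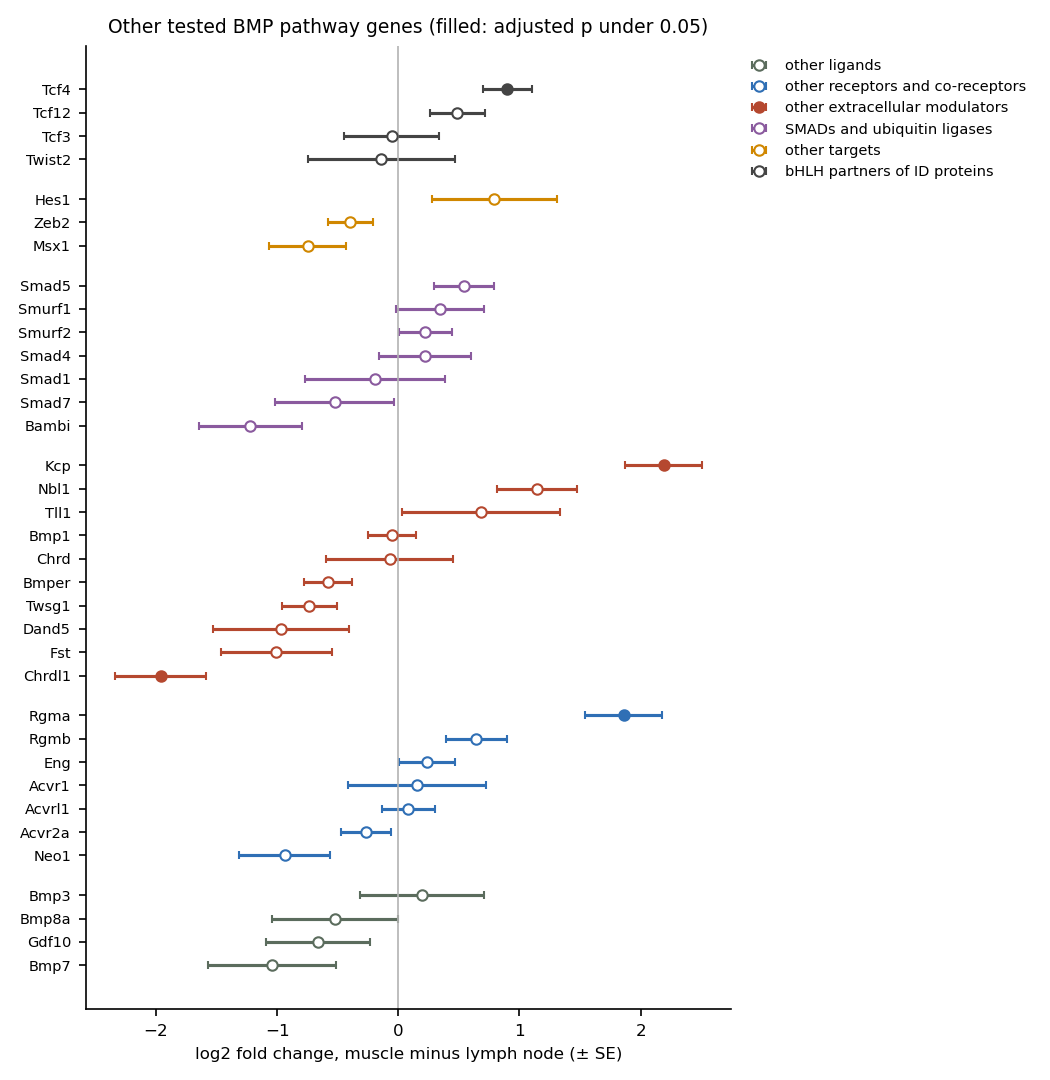
Log2 fold change, muscle minus lymph node (horizontal axis, with SE), of the 35 other tested BMP pathway genes (vertical axis), coloured by list; filled symbols have an adjusted p under 0.05. Kcp, Rgma and Tcf4 are filled to the right and Chrdl1 to the left.

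Leaving out muscle library 4, 38 of the 67 pathway genes were tested, 5 of them higher and 6 lower in muscle. The 2 further genes that rose were Nbl1, a BMP antagonist of the DAN family (log2 fold change 1.37, adjusted p = 9.73e-04), and the co-receptor Rgmb (0.78, adjusted p = 0.0191). Beside Chrdl1 (-2.41) and Gdf10, the genes that fell were the antagonist Fst (-0.63, adjusted p = 0.0481), Twsg1 (-0.55, adjusted p = 0.0169), the RGM receptor Neo1 (-0.65, adjusted p = 0.0354) and Zeb2 (-0.55, adjusted p = 0.0143). Kcp (2.26, adjusted p = 2.91e-05), Rgma (2.01, adjusted p = 9.83e-05) and Tcf4 (1.00, adjusted p = 4.01e-04) were called in this comparison too. Bmp3 (0.53), Acvr2a (-0.14), Eng (-0.02), Bmp1 (0.09), Smad5 (0.63), Smurf2 (0.32), Msx1 (-0.51) and Tcf12 (0.53) were not, and Eng and Bmp1 thereby had the opposite sign from the fit of all 6 libraries. Nbl1, Rgmb, Fst and Neo1 are named here because they were called in this comparison, after their values were seen. The 12.4% of all genes called without that library is the background for these 11. As for the members, it is not known whether the muscle side of this fit is more than 1 animal.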

How the data were processed

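Per the labels' protocols, polyadenylated RNA of 1000 sorted cells was copied from an oligo(dT) primer, amplified, fragmented by a transposase and sequenced in pairs of 25 bases. The authors deposited raw read counts per gene symbol, and the submitters' processing notes name STAR 2.5.4, featureCounts and mm10. For annotation, strand setting and multimapping reads, the rules were not given in the sources used here. No molecular identifiers are described, so intervals and floors cover counting error only.

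The counts were tested with edgeR 4.0.16 in R 4.3.3 (filterByExpr, TMM, glmQLFit and glmQLFTest on tissue alone, 6 libraries, two-sided). SE was computed as the absolute fold change over the root of the F statistic. Library totals ran from 415460 to 2397134. Levels per kilobase use exon lengths of GENCODE M21. Likeness used log2 CPM with a prior count of 2. Promoters come from RefSeq. The procedure was tested on simulated data, with changes placed in genes of at least 20 mean CPM. There edgeR recovered 20% of 100 2-fold changes and 98% of 100 4-fold changes, with 10 false calls. A gene of at least 20 mean CPM that was not called may therefore still differ by 2-fold. No change was placed in genes below that level, so these rates do not cover them. Bmp5 and Bmp6 are such genes, and Bmp5 was not called with all 6 libraries at an estimated 4.46-fold.

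Members, lists and tests were chosen with earlier results of these data known. A further pathway gene is not reported here and was left out of the counts over lists. Named are all members, each called pathway gene, the 2 most abundant genes of each list and the 3 genes most like a called member. Alternatives were scaling by RLE, upper quartile or total counts, no filter, a filter of 10 CPM in 3 libraries, DESeq2 1.42.0, limma-voom (limma 3.58.1) with and without library weights, muscle libraries 2 and 3 summed, and each library left out. A block by column number was added later.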

Additional observations from a re-analysis of the deposited data

How the results depend on the processing

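Among members, 2 were called higher in muscle with no filter and with limma-voom library weights, 0 with muscle libraries 2 and 3 summed, and 0 to 2 when 1 library was left out. Members called lower numbered 2 with library weights and 0 to 2 with 1 library left out. Over all genes, the 468 calls became 945 with no filter, 1366 with library weights and 222 with the summed pair, and ran from 142 (without lymph node library 2) to 1391 (without muscle library 4) with 1 library left out, each of the 6 moving it by over 1.5 times. Other pathway genes called higher numbered 6 with library weights, 1 with the summed pair and 0 to 5 with 1 library left out. Those called lower numbered 3, 5 and 0 with no filter, library weights and the summed pair, and 0 to 6 with 1 library left out. The remaining alternatives (RLE, upper-quartile and total-count scaling, the 10 CPM filter, DESeq2 and limma-voom) kept these counts within 1.5 times. The spread (common biological coefficient of variation) went from 0.265 to 0.151 when muscle library 4 was left out, a library in which 3 counts are worth 8.06 CPM. The causes were not tested. Columns of both tissues carry the numbers 2 and 3, but nothing in the labels ties equal numbers to an animal or batch. Deviations from the tissue means correlated at r = -0.03 (number 2) and 0.02 (number 3). The muscle mean includes muscle library 4, which stood apart and weighs on these deviations. The values therefore cannot decide whether equal numbers share an animal or batch. A fit with column number as a replicate block, added after the data were seen, leaves muscle library 4 and lymph node library 1 without a partner. It called 1530 genes, 2 members higher (Bmp4 and Bmp5) and 2 lower (Id2 and Id3), and 7 other pathway genes higher and 6 lower.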
